A study of Mus musculus with 6 samples.

Results

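Cholesterol synthesis, uptake and the control of both by SREBP2 were followed in mouse liver through 32 listed genes. They were matched by gene symbol in the annotation of the array, and 31 of the 32 had probe sets named for 1 gene. Acat2 was not analysed here, and Msmo1 carries its older name Sc4mol in that annotation. The 31 are set beside the 15045 genes tested. Livers came from 3 Dhx32-/- mutant mice and 3 control mice labelled wild type, all male and 6 to 8 weeks old. One array was hybridised with the RNA of each snap-frozen liver. Dhx32 belongs to the DEAH-box family of RNA helicases, and the sources used here do not give the kind of allele. Nor do the labels say whether the controls were littermates of the mutants. The array is an exon array, with a probe set for most exons of a gene. A gene's level is its mean log2 signal over the probe sets that reached a mean of 3 or more in a group. All differences are mutant minus control on that scale, so that 1 is a doubling.

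Liver cells make cholesterol from acetyl-CoA through mevalonate, isoprenoids, squalene and lanosterol. SREBP2 is a transcription factor held in the endoplasmic reticulum membrane with its escort SCAP. When sterols are plentiful, INSIG proteins retain SCAP there. When sterols are scarce, SCAP carries SREBP2 to the Golgi, where it is cut, and its released domain raises transcription of the enzymes of synthesis and of genes for uptake. The liver also takes up cholesterol from lipoproteins, stores it as esters and exports it onto apolipoprotein A1.

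Arrays had median log2 signals of 6.73 to 6.95, and their number limits the precision. Mutant replicate 1 stood apart, correlating with other arrays at 0.935 to 0.940 over all probe sets, while the highest correlation between any arrays was 0.973. Dhx32 itself read 6.35, 6.60 and 7.04 in mutant replicates 1, 2 and 3, against 8.28, 8.85 and 8.62 in control replicates 1, 2 and 3. It was 3.78-fold lower in mutants (adjusted p = 0.183 in limma), with no overlap between the groups. Which exons the allele alters is not given, so a remaining signal cannot be read as remaining transcript. The labels do not say whether replicates came from separate litters. Across the genome 1 of 15045 genes passed an adjusted p of 0.05 in limma, which is 0.00665% of genes. The hepatocyte markers Alb, Ttr, Apoa1, Tat, Fgb, Cyp2e1, G6pc and Hnf4a were bright in every liver, with a mean level of 12.74 to 13.07 in mutants and 12.92 to 12.97 in controls. In whole liver, fewer cells of a type and less RNA per cell cannot be told apart.

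The enzymes of cholesterol synthesis were mostly higher in mutant livers, whereas the genes for sensing, storage and transport were mixed. Of 19 measured enzymes 16 were higher on average in mutants and 3 lower, and their median difference was 0.51. Of the other 12 members 8 were higher and 4 lower, with a median of 0.14. Over all genes tested the median difference was -0.01, and 47.5% of genes had a higher mean in mutants. None of the 31 passed over all genes in limma, where adjusted p-values ran from 0.547 (Mvd) to 0.999 (Tm7sf2). At an unadjusted p under 0.05, 5 of 31 were higher and 0 lower, where 2.01% of all genes were higher and 2.2% lower at that level (4.21% in all). In 5 of the 31 (Mvd, Sqle, Dhcr7, Pmvk and Abca1) every mutant lay above every control, which held for 5.15% of all genes. No member lay lower in every mutant, which held for 4.32% of genes.

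**Figure D1:**
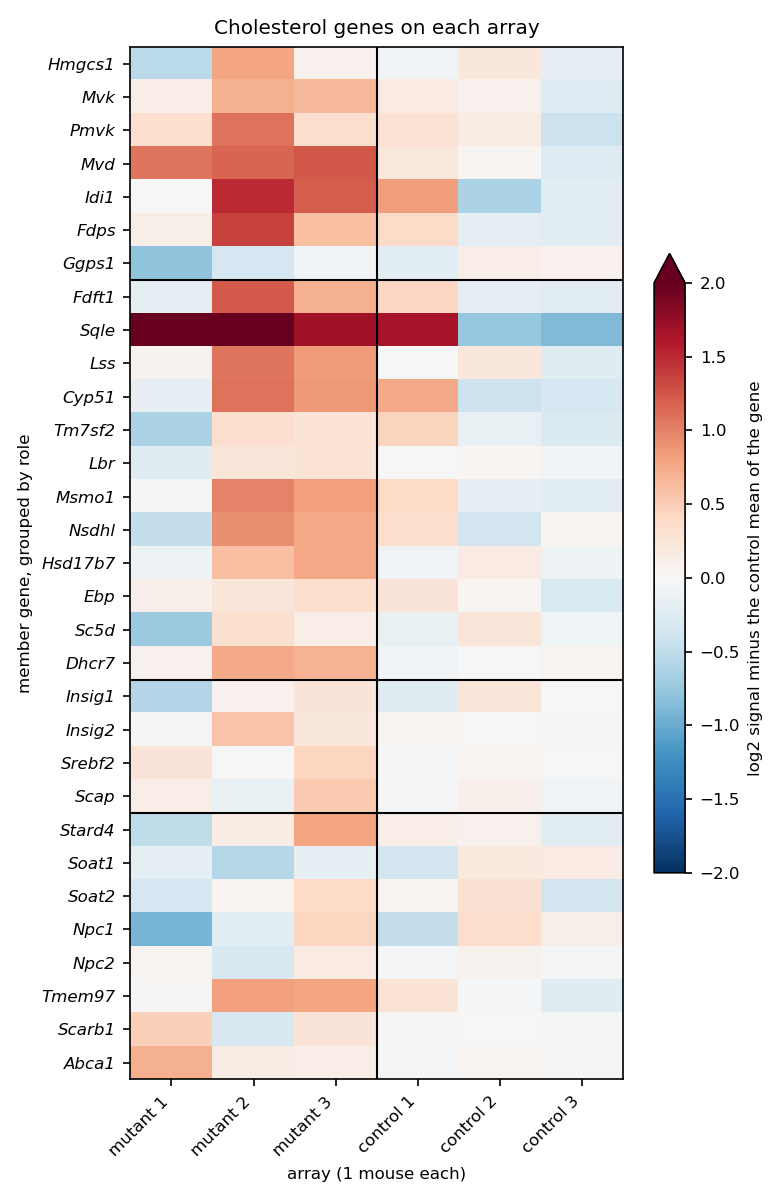
Log2 signal of 31 cholesterol genes on each of 6 arrays, minus the gene's control mean; rows are genes grouped by role, columns are arrays with the 3 mutants left of the 3 controls, and colour runs from -2 (blue) to 2 (red), with values above 2 drawn as 2. Most enzymes are red in mutant replicates 2 and 3 and pale or blue in mutant replicate 1, except Mvd and Sqle, which are red in all 3 mutants.

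The livers were not alike within the groups. Among the 19 enzymes, mutant replicate 2 was the highest mutant in 14 and mutant replicate 3 in 5, while mutant replicate 1 was the lowest mutant in 17. Mutant replicate 2 lay above all controls in 16 of the 19 and mutant replicate 3 in 15. Mutant replicate 1 did so in 4 only (Pmvk, Mvd, Sqle and Dhcr7), and it lay below all controls in 7. Among the controls, replicate 1 was the highest in 12 of the 19 and replicate 3 the lowest in 13. Averaged over the 12 enzymes from squalene to cholesterol, the mutants lay at -0.02, 0.85 and 0.68 from the control mean in replicates 1, 2 and 3, against 0.33, -0.11 and -0.22 for the controls. Over the 7 enzymes that make mevalonate and isoprenoids, the mutants lay at 0.04, 0.90 and 0.58 and the controls at 0.23, -0.03 and -0.21. The median gene of all those tested lay at -0.06, -0.04 and 0.07 in the mutants.

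Without mutant replicate 1, 15 of the 31 members were higher at an unadjusted p under 0.05, where 2.63% of all genes were. In the same 5 arrays 18 of the 31 had both remaining mutants above every control, where 10.4% of genes did. Each of the 12 squalene and sterol enzymes was then higher on average in mutants, and their median difference was 0.79 against 0.47 on all arrays. Without mutant replicate 2 the count higher at an unadjusted p under 0.05 was 2 members (3.55% of all genes), and 8 lay above every control in both remaining mutants (13.7%). Without mutant replicate 3 it was 3 (2.77%), and 5 lay wholly above the controls (10.5%). In that setting Ggps1 was lower at that level (6.23% of all genes were) and lay wholly below the controls (16.9%), with a difference of -0.57. Without control replicate 1 it was 9 (2.98%), and 12 lay wholly above the controls (11.6%). In that setting Soat1 was lower at that level (3.45% of all genes were), with a difference of -0.50, and both Soat1 and Ggps1 lay wholly below the controls (12.9%). Without control replicate 2 it was 3 (1.18%), and 6 lay wholly above the controls (8.49%). Without control replicate 3 it was 2 (1.1%), and 5 lay wholly above the controls (7.66%). No member was lower at that level, or wholly below the controls, in the other 4 settings. The members' counts thus depended on single livers, most of all on mutant replicate 1. No member passed the adjusted threshold without mutant replicate 2, where 0.00663% of all genes did. None of the 31 passed the adjusted threshold without mutant replicate 1, where 0% of all genes did. The members' smallest adjusted p in limma was then 0.402, for Mvd.

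Mvd, mevalonate diphosphate decarboxylase, which makes isopentenyl diphosphate, had the smallest p of the members and the third smallest of all genes. Its level was 8.08, 8.17 and 8.26 in the mutants, in the order of replicates 1, 2 and 3 used for all such values below, against 7.23, 7.05 and 6.76 in the controls. The groups did not overlap, and the gap between the lowest mutant and the highest control was wider than the spread of the mutants. The difference was 1.16 (SE 0.17), or 2.23-fold, with a 95% interval of 0.77 to 1.54 (unadjusted p = 0.00011 and adjusted p = 0.547 in limma). Each of the 12 Mvd probe sets was higher in mutants, by 0.65 to 1.65, and in 11 of them the groups did not overlap. Of all probe sets, 4.01% lay higher in every mutant. The 12 share the same mice and are no replicates of the groups. In mutant replicate 1, low for most enzymes, Mvd was close to its level in the other mutants, and its difference was 1.20 without that array.

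The 250 bases before the start of Mvd and of 3 other enzymes are given because promoters of this pathway typically pair an SREBP2 site with sites for its partners NF-Y and Sp1. Searched on both strands were TCACNCCAC, the core of the sterol regulatory element, CCAAT for NF-Y and GGGCGG for Sp1. Matches on either strand are in capitals. Msmo1, Idi1 and Hmgcs1 were chosen after their values and matches were seen. The Mvd stretch overlaps the annotated gene 9330133O14Rik, and the other stretches overlap no annotated gene. Sequences are RefSeq, build GRCm38.p6, for Mvd chr8:122443423-122443672 (minus strand), Msmo1 chr8:64733579-64733828 (minus), Idi1 chr13:8885356-8885605 (plus) and Hmgcs1 chr13:119690101-119690350 (plus).
Mvd: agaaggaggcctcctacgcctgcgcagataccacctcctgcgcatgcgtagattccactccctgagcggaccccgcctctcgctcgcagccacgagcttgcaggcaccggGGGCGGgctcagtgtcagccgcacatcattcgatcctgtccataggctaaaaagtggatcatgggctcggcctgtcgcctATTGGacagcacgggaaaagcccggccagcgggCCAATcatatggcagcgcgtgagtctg
Msmo1: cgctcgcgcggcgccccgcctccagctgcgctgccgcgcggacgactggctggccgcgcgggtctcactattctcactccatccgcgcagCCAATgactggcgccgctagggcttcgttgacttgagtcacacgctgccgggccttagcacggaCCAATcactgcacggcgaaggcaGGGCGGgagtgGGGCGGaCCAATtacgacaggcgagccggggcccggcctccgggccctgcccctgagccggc
Idi1: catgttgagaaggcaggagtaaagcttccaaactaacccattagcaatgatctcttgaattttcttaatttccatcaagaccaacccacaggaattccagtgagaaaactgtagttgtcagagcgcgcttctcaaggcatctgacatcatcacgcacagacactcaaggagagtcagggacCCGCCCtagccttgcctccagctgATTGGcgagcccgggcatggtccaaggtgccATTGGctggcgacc
Hmgcs1: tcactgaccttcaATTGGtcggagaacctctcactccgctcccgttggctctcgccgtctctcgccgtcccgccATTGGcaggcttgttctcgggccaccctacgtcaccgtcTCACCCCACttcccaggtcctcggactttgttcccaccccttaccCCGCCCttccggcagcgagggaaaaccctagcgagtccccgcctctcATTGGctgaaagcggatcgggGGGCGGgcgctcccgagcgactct

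Promoter windows of 300 bases, 250 before the start and 50 after it, were given for 24 of the 31 members, 4 of them with more than 1 window. CCAAT was present for 22 of the 24 members (91.7%), against 42.4% of the 12026 tested genes with a window. By window that is 22 of 30 (73.3%), against 37.4% of all 32851 windows and also 37.4% of the windows of tested genes. GGGCGG was likewise present for 22 of 24 members, against 58.9% of tested genes, and by window in 83.3% of 30, against 53.6% of the windows of tested genes and 35.7% of all windows. TCACNCCAC matched in 1 of 24 members (4.17%), against 1.47% of tested genes. That member is Hmgcs1, where the match begins at position -137 from the start. By window it matched in 3.33% of 30, against 1.21% of the windows of tested genes and 1.24% of all windows. Sterol regulatory elements with other letters were not searched for. No 2 matches of different motifs overlapped in the members' windows. Scap and Abca1 were the members with a window and no CCAAT. A match here is a run of letters, and windows of the same length differ in base composition.

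Among the steps from acetyl-CoA to farnesyl diphosphate, several enzymes had higher levels in mutant replicates 2 and 3, and like Mvd they did not pass the test. Mvk, mevalonate kinase, read 7.92, 8.49 and 8.43 in mutants, against 7.95, 7.86 and 7.53 in controls, a difference of 0.50 (SE 0.20). Mutant replicate 1 lay between the controls. Pmvk, which adds the second phosphate, read 8.38, 9.13 and 8.36 in mutants, against 8.32, 8.18 and 7.61 in controls. Its groups did not overlap, but mutant replicates 1 and 3 lay close to control replicate 1, and the difference was 0.58 (SE 0.27). Idi1, the isomerase of isopentenyl diphosphate, read 10.29, 11.79 and 11.51 in mutants, against 11.14, 9.68 and 10.09 in controls. Here control replicate 1 lay well above mutant replicate 1, so the groups overlapped despite a mean difference of 0.89 (SE 0.46). Fdps, farnesyl diphosphate synthase, read 9.62, 10.87 and 10.11 in mutants, against 9.88, 9.33 and 9.29 in controls, with a difference of 0.70 (SE 0.32) and mutant replicate 2 alone far above the rest.

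The first and last members of this branch did not share that pattern. Hmgcs1, the synthase of HMG-CoA and a standard SREBP2 target, averaged 9.83 ± 0.66 in mutants and 9.72 ± 0.21 in controls (SD, n = 3 each). Its difference of 0.11 (SE 0.31) had a 95% interval of -0.60 to 0.82, which spans 0. Ggps1, geranylgeranyl diphosphate synthase, which draws isoprenoids away from sterols toward protein prenylation, was the member with the most negative difference, -0.40 (SE 0.21). It read 6.01, 6.49 and 6.75 in mutants, against 6.60, 6.95 and 6.90 in controls, with mutant replicate 3 inside the control range. Of its 12 probe sets 10 were lower in mutants.

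**Figure D2:**
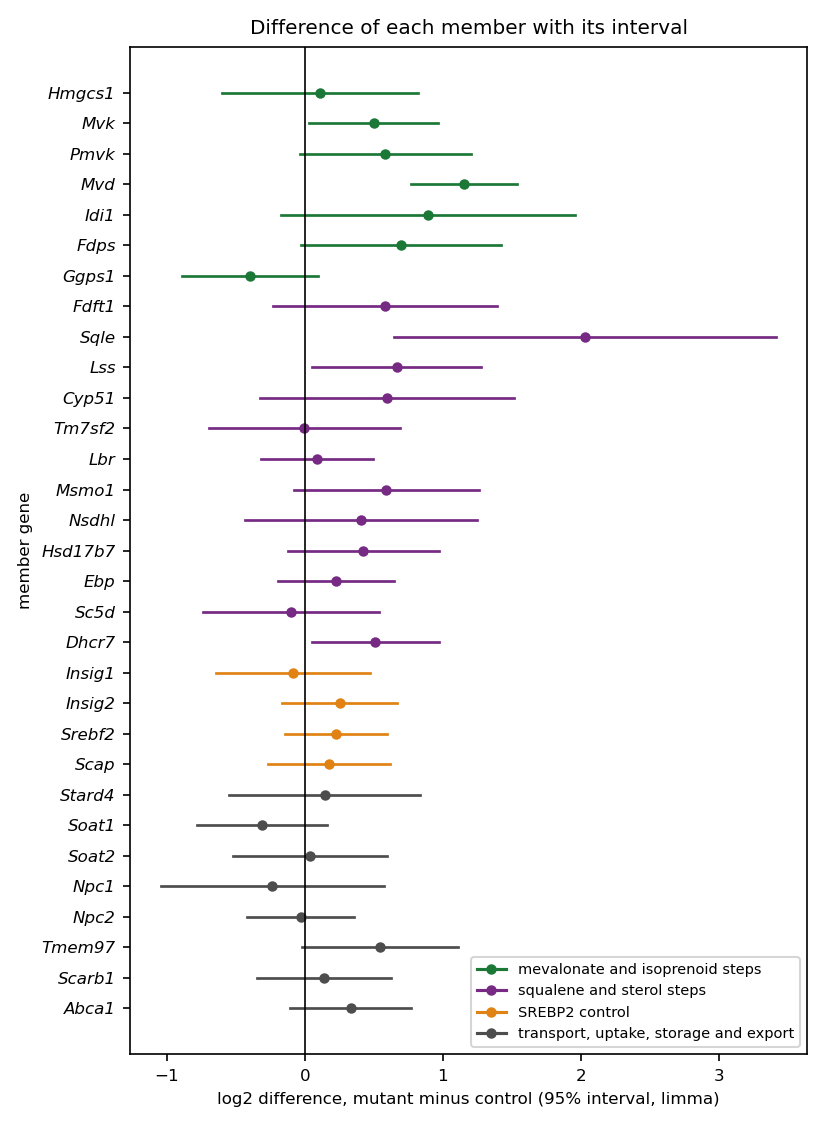
Difference in log2 signal, mutant minus control, for each of 31 cholesterol genes (points), with the 95% interval from limma (bars), coloured by role. The intervals of Mvd, Sqle, Dhcr7, Lss and Mvk lie above 0, and the other 26 include 0.

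Squalene and sterol enzymes showed the largest single difference of the members. Sqle, squalene epoxidase, which adds the oxygen that becomes the sterol hydroxyl, read 9.80, 10.10 and 9.46 in mutants, against 9.39, 6.99 and 6.87 in controls. All mutants were high, but control replicate 1 was nearly as high, and the other controls stood more than 2 log2 units lower. The difference was 2.03 (SE 0.60), or 4.09-fold, with a 95% interval of 0.65 to 3.42 (adjusted p = 0.943 in limma). Each of the 14 Sqle probe sets was higher in mutants, by 1.7 to 2.53, and control replicate 1 was the highest control in each. Without control replicate 1 the difference was 2.85 (adjusted p = 0.0154 in limma, where 0.0199% of genes passed). Sqle was then the only member past the threshold. Control replicate 1 was the only high control, and leaving it out lowered the SE from 0.60 to 0.23. That adjusted p holds for this choice of arrays only. Sqle matched Mvd in being high in mutant replicate 1, where most other enzymes were not.

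Control replicate 1 was also high in Cyp51, the demethylase of lanosterol, which read 9.30, 10.56 and 10.33 in mutants, against 10.23, 9.05 and 9.14 in controls. The difference of 0.60 (SE 0.40) came with mutant replicates 2 and 3 above every control, while mutant replicate 1 lay between control replicate 1 and the other controls. Fdft1, squalene synthase, at the branch point toward sterols, read 9.05, 10.48 and 9.96 in mutants, against 9.67, 9.05 and 9.03 in controls. Mutant replicates 2 and 3 again lay above every control and mutant replicate 1 inside the control range, with a difference of 0.58 (SE 0.35). Msmo1, a sterol methyl oxidase, read 11.08, 12.10 and 11.94 in mutants, against 11.51, 10.96 and 10.88 in controls, a difference of 0.59 (SE 0.29). Again the 2 high mutants were joined by control replicate 1 as the next highest liver.

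In Lss, Dhcr7 and Hsd17b7 the controls were closer together. Lss, lanosterol synthase, which closes the sterol rings, read 7.82, 8.82 and 8.61 in mutants, against 7.75, 7.98 and 7.51 in controls, a difference of 0.67 (SE 0.27). Of its 21 probe sets 20 were higher in mutants, while mutant replicate 1 lay inside the control range at the gene level. Dhcr7, the reductase that completes cholesterol, read 9.85, 10.52 and 10.46 in mutants, against 9.71, 9.77 and 9.82 in controls. Mutant replicate 1 cleared the highest control only narrowly, and the difference was 0.51 (SE 0.20). Hsd17b7, a ketoreductase of the demethylation complex, read 9.31, 10.02 and 10.20 in mutants, against 9.35, 9.59 and 9.32 in controls, a difference of 0.42 (SE 0.24) with mutant replicate 1 below every control.

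**Figure D3:**
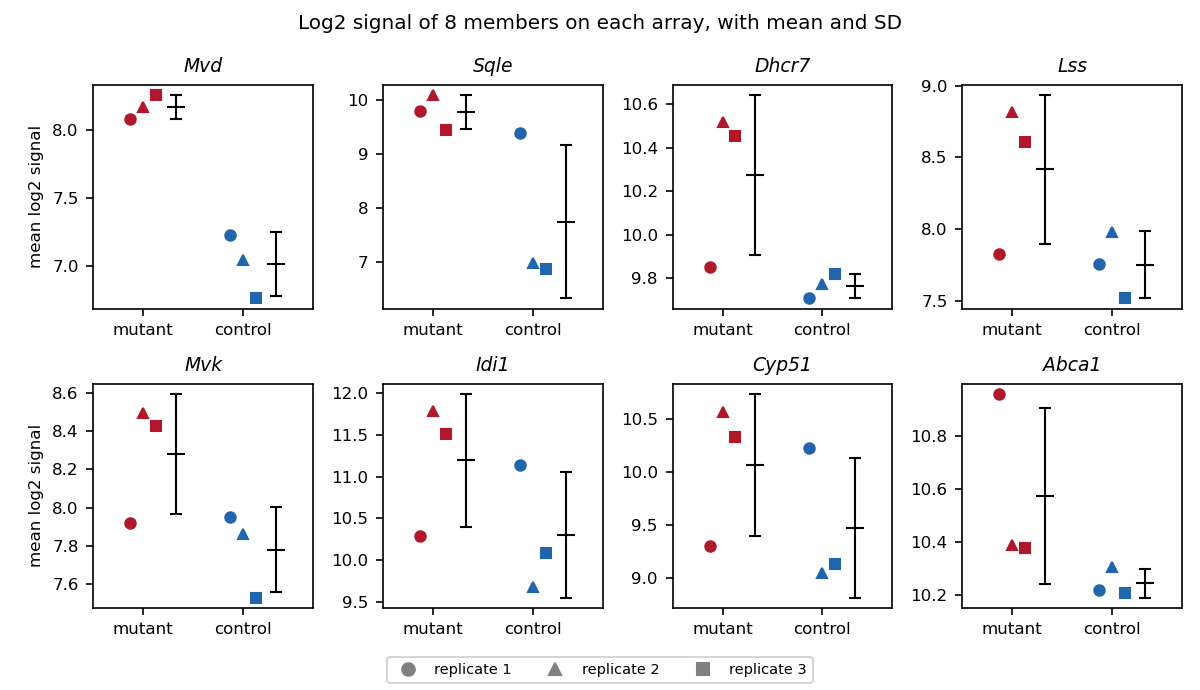
Mean log2 signal of Mvd, Sqle, Dhcr7, Lss, Mvk, Idi1, Cyp51 and Abca1 in each mutant (red, left) and control (blue, right) liver; symbols mark the replicate numbers and black bars the mean and SD of 3, and each panel has its own axis. Mvd separates the groups widely, control replicate 1 sits near the mutants for Sqle, and Abca1 is highest in mutant replicate 1.

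The remaining sterol enzymes differed little or unevenly. Nsdhl, a dehydrogenase that works with Msmo1, averaged 10.21 ± 0.77 in mutants and 9.81 ± 0.36 in controls (SD, n = 3 each), a difference of 0.41 (SE 0.37). Ebp, the sterol isomerase, differed by 0.23 (SE 0.18), and each of its 8 probe sets was higher in mutants, by 0.18 to 0.36. The sterol reductases Tm7sf2 and Lbr averaged 9.92 ± 0.54 in mutants and 9.92 ± 0.39 in controls (SD, n = 3 each) for Tm7sf2 and 7.91 ± 0.29 in mutants and 7.83 ± 0.05 in controls (SD, n = 3 each) for Lbr, which is also the lamin B receptor of the nuclear envelope. Their differences were -0.0034 (SE 0.30) and 0.09 (SE 0.18). Sc5d, a desaturase near the end of the pathway, differed by -0.10 (SE 0.28), with an interval of -0.74 to 0.54.

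Genes of the SREBP2 control system differed by 0.25 or less in either direction. Srebf2, which encodes SREBP2, averaged 8.73 ± 0.23 in mutants and 8.50 ± 0.03 in controls (SD, n = 3 each), a difference of 0.23 (SE 0.16), and 11 of its 12 probe sets were higher in mutants. Scap, the escort, differed by 0.18 (SE 0.19), with 24 of 25 probe sets higher. Mutant replicate 3 was its highest liver and mutant replicate 2 its lowest. Without mutant replicate 3 the Scap difference was 0.0018. Insig1 and Insig2 both retain SCAP. Insig1, itself a strong SREBP target, averaged 11.07 ± 0.44 in mutants and 11.16 ± 0.24 in controls (SD, n = 3 each), a difference of -0.08 (SE 0.24) with an interval of -0.64 to 0.47. Insig2 averaged 11.20 ± 0.30 in mutants and 10.95 ± 0.05 in controls (SD, n = 3 each), a difference of 0.25 (SE 0.18), and each of its 10 probe sets was higher in mutants. Mutant replicate 2 was the highest liver for Insig2 and mutant replicate 3 for Insig1, and mutant replicate 1 was the lowest liver for Insig1.

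Among transport genes, Tmem97 looked like the enzymes. It encodes a sterol-regulated membrane protein that binds NPC1, and read 9.37, 10.16 and 10.12 in mutants, against 9.60, 9.31 and 9.09 in controls. Mutant replicates 2 and 3 were the highest livers and control replicate 1 the next, with a difference of 0.55 (SE 0.25). Stard4, a soluble sterol carrier, averaged 9.65 ± 0.64 in mutants and 9.51 ± 0.20 in controls (SD, n = 3 each), a difference of 0.14 (SE 0.30). Npc1 and Npc2, which hand cholesterol out of lysosomes, differed by -0.24 (SE 0.35) and -0.03 (SE 0.17), and 22 of the 26 Npc1 probe sets were lower in mutants. The Npc1 levels overlapped, at 9.13, 9.86 and 10.50 in mutants and 9.60, 10.42 and 10.18 in controls.

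Storage and export genes were mixed. Soat1, which esterifies cholesterol in most tissues, read 6.92, 6.54 and 6.95 in mutants, against 6.75, 7.32 and 7.28 in controls, a difference of -0.31 (SE 0.21) with control replicate 1 among the mutants. Soat2, the hepatocyte esterifying enzyme, differed by 0.03 (SE 0.24), with an interval of -0.52 to 0.59. Abca1, which loads cholesterol onto apolipoprotein A1 and is induced by the sterol receptor LXR, read 10.96, 10.39 and 10.38 in mutants, against 10.22, 10.31 and 10.21 in controls. Its groups did not overlap, and here mutant replicate 1, low for most enzymes, was the highest liver. The difference was 0.33 (SE 0.19), or 0.14 without mutant replicate 1, and 51 of 52 Abca1 probe sets were higher in mutants. Scarb1, the receptor for high-density lipoprotein, differed by 0.14 (SE 0.21), again with mutant replicate 1 the highest liver, and by -0.03 without it.

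Single probe sets of the members were mostly higher in mutants, and none was called. Of 401 kept probe sets of the 31 members 313 were higher in mutants (78.1%), where 46.8% of all 191663 kept probe sets were. None passed over all probe sets in limma, where 0% of the 191663 passed. At an unadjusted p under 0.05, 50 of the 401 were higher and 4 lower, where 1.9% and 2.18% of all probe sets were. Sqle supplied 13 of those 50 and Mvd 12. Groups did not overlap in 72 probe sets with mutants higher and in 7 with mutants lower, where 4.01% and 4.44% of all probe sets did. Probe sets of 1 gene share their mice and are no replicates of the groups.

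**Figure D4:**
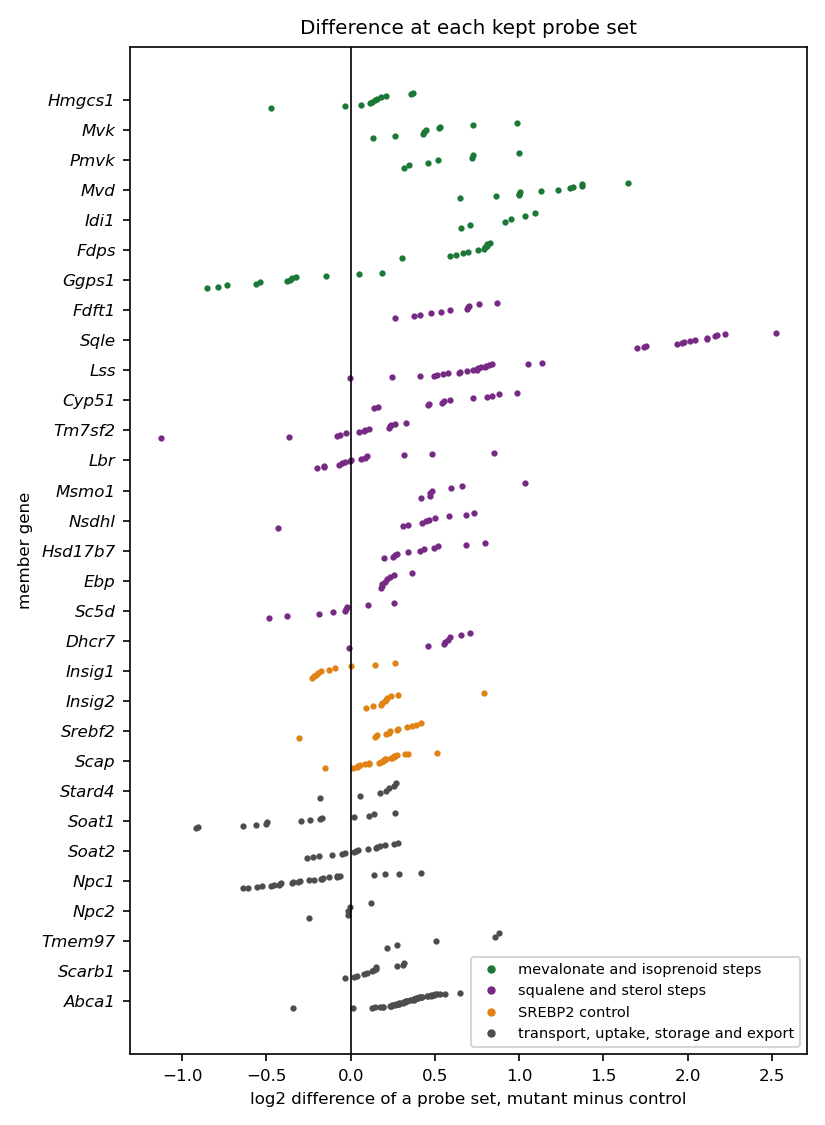
Difference in log2 signal at each kept probe set of the 31 cholesterol genes, mutant minus control (horizontal axis), 1 row per gene and 1 point per probe set, coloured by role. The 12 Mvd and 14 Sqle probe sets all lie above 0.5, while those of Ggps1, Soat1 and Npc1 lie mostly below 0.

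Exon usage, meaning how 1 exon's probe set behaves beside the other probe sets of that gene, was tested because the study looked for altered splicing. None of the 31 members passed the diffSplice F-test of limma, where 0.21% of 14310 genes did. At an unadjusted p under 0.05 there were also 0 members, where 4% of genes were. Tmem97, Soat1 and Mvk had the smallest p-values (unadjusted p = 0.591, 0.711 and 0.728 in the F-test; adjusted p = 1 each). The F-test measures its error over the probe sets of a gene together, so shifts of the whole gene between mice enter that error. With each probe set taken relative to its gene's mean on the same array, again none of the 401 probe sets passed in limma. Of all 172428 probe sets tested in that way 0 passed. At an unadjusted p under 0.05 there were 6 of the 401 (1.5%), where 4.04% of all such probe sets were. The most deviating Tmem97 probe set, 5511216, read 8.97, 9.35 and 9.12 in mutants, against 8.56, 8.21 and 8.04 in controls. That of Soat1, 4919407, read 6.48, 5.63 and 5.95 in mutants, against 7.02, 6.63 and 7.16 in controls. That of Mvk, 5584076, read 8.54, 9.16 and 9.21 in mutants, against 8.17, 8.19 and 7.58 in controls. In these 3 the groups did not overlap, and the probe set's difference had the sign of its gene's. Of all probe sets, 4.01% lay higher in every mutant and 4.44% lower. These 3 were picked as the most deviating of their genes, which favours such separation, and separate signals alone do not show altered exon usage. Relative to the gene's mean on the same array, they differed by 0.33 (SE 0.22) for Tmem97, -0.60 (SE 0.29) for Soat1 and 0.49 (SE 0.19) for Mvk.

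Genes next to the pathway were read from lists chosen with earlier results of these data known, and none of them passed the test. Of 10 measured genes that process SREBP or degrade sterol sensors 1 was higher and 9 lower, with a median of -0.12. The higher one was Syvn1, an E3 ubiquitin ligase of the endoplasmic reticulum, at 10.04, 9.30 and 9.32 in mutants, against 8.55, 8.78 and 8.93 in controls. Rnf139, another ligase of that membrane, read 8.32, 8.50 and 8.76 in mutants, against 9.0, 8.92 and 9.05 in controls. Paqr3 and Rnf145 differed by -0.21 (SE 0.14) and -0.22 (SE 0.16). Neither Syvn1 nor Rnf139 passed over all genes (adjusted p = 0.943 each in limma). Syvn1 lay higher in every mutant, as did 5.15% of all genes. Rnf139 and Paqr3 lay lower in every mutant, as did 4.32% of all genes.

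Genes that use isoprenoids outside sterols were mixed, with 7 of 12 measured genes higher, 5 lower and a median of 0.04. Fnta, a farnesyltransferase subunit, differed by -0.41 (SE 0.21) and Icmt, which methylates prenylated proteins, by -0.19 (SE 0.18). The others of smallest p were Fntb at 0.16 (SE 0.15) and Nus1 at 0.12 (SE 0.15). Of 7 sterol export and LXR genes 3 were higher and 4 lower, with a median of -0.08. Mylip, an LXR-induced ligase for lipoprotein receptors, differed by -0.38 (SE 0.36), Abcg1 by 0.12 (SE 0.14), Lpcat3 by -0.22 (SE 0.33) and the LXR gene Nr1h3 by 0.07 (SE 0.17). Of 12 intracellular sterol transport genes 5 were higher and 7 lower, with a median of -0.05, and Stard3, a lysosomal sterol carrier, differed by 0.22 (SE 0.16). Gramd1a differed by 0.19 (SE 0.19), Stard10 by 0.15 (SE 0.17) and Osbpl2 by -0.19 (SE 0.23).

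Genes of fatty acid synthesis, which the related factor SREBP1 controls, were mostly lower on average in mutants, and none passed the test. Of 14 measured genes 1 was higher and 13 lower in mutants, with a median of -0.28, and 2 were lower at an unadjusted p under 0.05, where 2.2% of all genes were. The desaturase Scd1 read 12.04, 12.68 and 12.99 in mutants, against 13.08, 13.39 and 13.40 in controls, without overlap. Mlxipl, the carbohydrate-response factor, read 8.92, 8.91 and 9.02 in mutants, against 9.18, 9.48 and 9.54 in controls, also without overlap. Me1 and Fads2 differed by -0.47 (SE 0.24) and -0.29 (SE 0.16). With Fads2, 3 of the 14 genes lay lower in every mutant, which held for 4.32% of all genes. Of 8 genes listed under bile acid synthesis 2 were higher and 6 lower, with a median of -0.14. They include Nr0b2, which is a regulator and no enzyme of that synthesis. Cyp7b1, the hydroxylase of the alternative route, read 12.27, 12.19 and 12.36 in mutants, against 12.41, 11.18 and 11.31 in controls, so that control replicate 1 was the highest liver. Nr0b2, Akr1d1 and Baat differed by 0.50 (SE 0.27), -0.64 (SE 0.36) and -0.30 (SE 0.21).

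Clock output and inflammation varied between the same livers. Of 9 clock genes 1 was higher and 8 lower in mutants, with a median of -0.29, and 0 passed or reached an unadjusted p under 0.05 in limma. Nr1d1, a clock repressor, read 7.30, 8.14 and 10.50 in mutants, against 9.13, 10.91 and 10.66 in controls. Dbp, a clock output factor, read 6.90, 6.91 and 8.74 in mutants, against 7.29, 8.93 and 8.71 in controls. Both were low in mutant replicates 1 and 2 and control replicate 1. Tef and Nr1d2 differed by -0.56 (SE 0.29) and -0.68 (SE 0.50). Acute phase genes had 8 of 9 measured members higher in mutants, and the list averaged 2.55, 1.16 and 0.69 in mutants, against -0.02, -0.11 and 0.14 in controls, counted from the control mean. Lcn2, an iron-sequestering protein, read 13.57, 11.19 and 10.14 in mutants, against 6.88, 7.11 and 7.93 in controls, and Saa3, Hp and Apcs differed by 3.29 (SE 0.97), 0.92 (SE 0.29) and 2.28 (SE 0.75). The acute phase list stood highest in mutant replicate 1, which was the lowest mutant in 17 of the 19 enzymes. The part of clock and acute phase genes in the differences of the cholesterol genes was not tested.

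**Figure D5:**
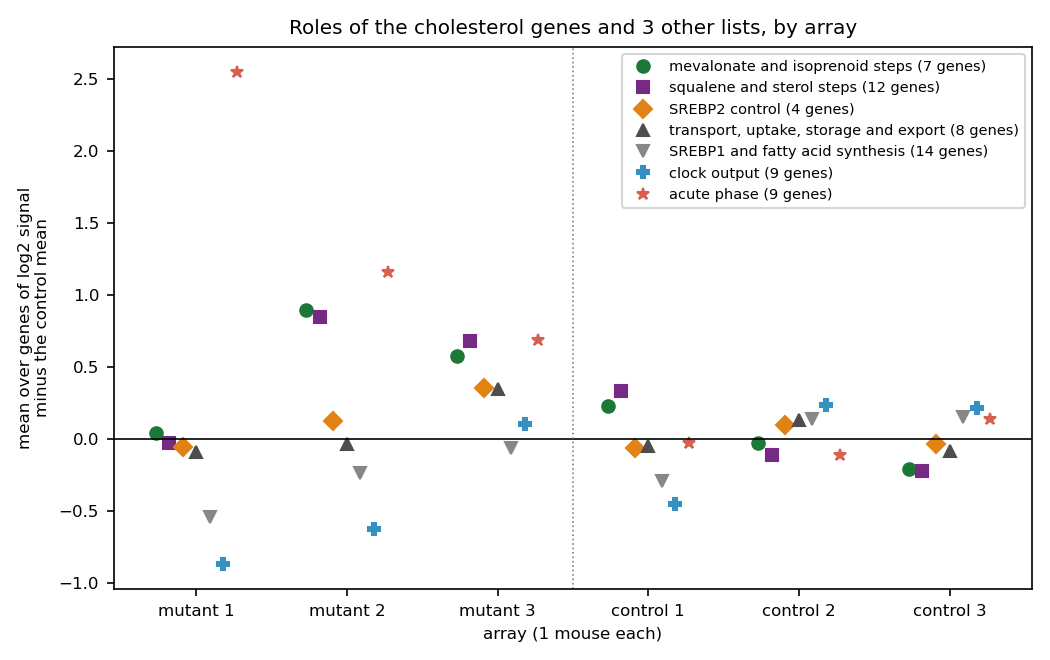
Mean over the genes of a list of log2 signal minus the gene's control mean, on each of 6 arrays with mutants left of controls, for the 4 roles of the cholesterol genes and for fatty acid synthesis, clock output and acute phase genes. The enzyme roles stand highest in mutant replicates 2 and 3, acute phase genes in mutant replicate 1, and clock genes stand lowest in mutant replicates 1 and 2 and control replicate 1.

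Markers of other cell types were read beside these values. Mean levels over 8 Kupffer cell markers were 7.72 to 8.48 in mutants and 7.62 to 8.19 in controls, with 4 of 8 higher. Over 8 neutrophil markers they were 5.27 to 6.22 in mutants and 5.17 to 5.45 in controls, with 6 of 8 higher and mutant replicate 1 the highest. Over 8 lymphocyte markers they were 5.29 to 5.45 in mutants and 5.38 to 5.42 in controls, with 3 of 8 higher. Over 7 endothelial markers they were 8.27 to 9.15 in mutants and 8.57 to 9.12 in controls, with 3 of 7 higher. Over 7 stellate cell markers they were 7.20 to 7.89 in mutants and 7.80 to 8.10 in controls, with 2 of 7 higher, and mutant replicate 1 was the lowest. Over 6 bile duct markers they were 6.29 to 6.99 in mutants and 6.25 to 6.46 in controls, with 5 of 6 higher. Over 6 adipocyte markers they were 5.59 to 5.97 in mutants and 4.95 to 5.36 in controls, with 6 of 6 higher. No deposited value is 0, the lowest being 0.36, and the markers' part in the results was not tested.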

How the data were processed

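Liver RNA of 3 mutant and 3 control mice was measured on exon arrays, 1 array per mouse. The authors deposited log2 signals for 204531 probe sets; per the submitters' processing notes, Affymetrix Expression Console 1.1, RMA, Partek 6.4 and mm9 are named, with no role or order, and the deposited values ran from 0.36 to 14.97. Here 191663 probe sets with a group mean log2 signal of 3 or more were kept, and genes with at least 2 kept probe sets of 1 symbol were averaged. Limma 3.58.1 in R 4.3.3 compared mutant with control by empirical Bayes, and p-values were adjusted by Benjamini-Hochberg across every gene, or every probe set, tested, and diffSplice tested exon usage in genes with at least 3 probe sets. The fits were tested on simulated data. No column of other samples was present. Members and lists were chosen with earlier results of these data known. All members were named, the 16 of smallest p with each array's value, and up to 4 genes of smallest p from each other list. An exact permutation test of 3 against 3 cannot go below p = 0.1. Replicate numbers were given within a group, and deviations of same-numbered arrays correlated at 0.10, -0.11 and 0.18, so the numbers were not taken as pairs. Alternatives changed the signal minimum, normalization, gene summary, moderation, array weights and arrays included.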

Additional observations from a re-analysis of the deposited data

How the results depend on the processing

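Of 434 differences of the members under 14 alternatives, 409 kept direction and side of the threshold, 1 passed it (Sqle without control replicate 1) and 24 in 10 members changed sign; the cause was not tested. The median difference of 0.25 ran from 0.22 to 0.43 when arrays were left out in turn, and the count of members with a higher mean from 21 to 27. With arrays left out in turn, members past the adjusted threshold ran from 0 to 1. Members higher at an unadjusted p under 0.05 ran from 2 to 15, where 1.1% to 3.55% of all genes were. Array weights gave mutant replicate 1 a weight of 0.38. Of all genes, 0 passed with no signal minimum, 2 with quantile normalization, 2 with median centring, 2 with array weights and 0 to 3 with an array left out. With the replicate block the median difference was 0.25 and 0 genes passed. Tm7sf2 was 0.027 with quantile normalization, 0.042 with centring, 0.22 with the probe set median, 0.28 with array weights and -0.18 to 0.31 with an array left out. Npc2 was 0.0057 with quantile normalization, 0.014 with centring and -0.13 to 0.11 with an array left out. Sc5d was 0.015 with the probe set median, 0.086 with array weights and -0.31 to 0.22 with an array left out. Scarb1 was -0.060 with array weights and -0.029 to 0.37 with an array left out. With an array left out Insig1 ran from -0.25 to 0.17, Npc1 from -0.57 to 0.11, Hmgcs1 from -0.23 to 0.43, Lbr from -0.0038 to 0.25, Stard4 from -0.17 to 0.47 and Soat2 from -0.15 to 0.22. With 3 arrays a group, precision is limited by their number.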
